A study of Homo sapiens with 6 samples.

Results

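The genes described here are the 26 integrin subunits and 12 laminin chains of the human genome, 38 of the 62700 genes in a table of RNA-seq read counts. They were taken by gene symbol: 18 integrin alpha and 8 integrin beta subunits, and 5 alpha, 4 beta and 3 gamma chains of laminin. The cells were labelled MKN-45, a human gastric adenocarcinoma line, and there were 3 libraries labelled NNMT knockdown and 3 control libraries. NNMT encodes nicotinamide N-methyltransferase. By the treatment protocol, cells of both groups were harvested 48 h after lipid transfection, and the labels call the 3 cultures per condition independent biological replicates. The labels name both siRNA and shRNA as the transfected agent, and they call the controls untouched in one place and negative-control transfected in others. All 6 libraries come from a single labelled line, so they carry no information on other gastric cells.

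Integrins are membrane receptors made of 1 alpha and 1 beta subunit, and they tie the cytoskeleton to the matrix outside the cell. Laminins are trimers of 1 alpha, 1 beta and 1 gamma chain, and they form the sheet of the basement membrane on which epithelial cells rest. In epithelia the pairs alpha3-beta1 and alpha6-beta4 are the main laminin receptors, and alpha6-beta4 anchors keratin filaments at hemidesmosomes. LAMA3 and LAMB3 are chains of the laminin under hemidesmosomes, while LAMA5 joins LAMC1 and either LAMB1 or LAMB2.

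Library totals ran from 40558680 to 56067484 reads, and the 38 genes held 1.00% to 1.06% of the reads of a library. NNMT itself had 2, 8 and 14 reads in the libraries labelled knockdown, against 0, 8 and 12 reads in control libraries. Its fitted log2 fold change was 0.48 with a 95% interval of -1.57 to 2.53, so no lowering of NNMT was detected, and the word "labelled" is kept. The epithelial keratin gene KRT19 averaged 1050 CPM (counts scaled to the library total) in libraries labelled knockdown and 936 CPM in control libraries. Replicate 1 labelled knockdown had 1261 CPM, while replicates 2 and 3 had 898 and 991 CPM. Control libraries had 927 to 945 CPM. KRT8 averaged 180 CPM in both groups. KRT18 averaged 113 CPM in libraries labelled knockdown and 122 CPM in control libraries. Of 5 epithelial markers, KRT19 alone had a fitted log2 fold change above 0, and 4 lay below 0. Of 12 gastric and intestinal marker genes, 7 lay below 1 CPM, and CDX1, CDX2 and GKN1 had 0 reads in all libraries. The gastric mucin genes MUC6 and MUC5AC averaged 50.9 and 11.4 CPM over the 6 libraries, and the trefoil factor genes TFF1 and TFF2 averaged 5.27 and 1.67 CPM. HNF4A had 2 reads in all, and VIL1 and LGALS4 averaged 0.217 and 0.157 CPM. CLDN18 averaged 0.215 CPM, and CEACAM5 ran from 0.289 to 26.8 CPM between libraries. Gastric markers were thus present in part. All 5 epithelial markers lay above 1 CPM, with EPCAM at a mean of 26.3 CPM and CDH1 at 35.8 CPM. Among 4 endothelial markers 2 lay below 1 CPM, but KDR averaged 162 CPM and PECAM1 23.2 CPM. The identity of the labelled line was not tested. Of 8 leukocyte markers 7 lay below 1 CPM, and the leukocyte gene CD3E and the platelet genes PF4 and GP9 had 0 reads. In bulk RNA, fewer cells of a type and less RNA per cell cannot be told apart.

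Expression of the family was concentrated in a few genes. Length-scaled levels are CPM divided by the kilobases of merged exons. They stayed above 100 in every library for 5 genes: LAMB3, LAMA5, ITGB1, ITGB4 and ITGA3. This set depends on the length used. By the length of the transcript with the longest coding sequence, ITGA6 also stayed above 100, with a lowest value of 110. On that scale ITGB1 ranked 1 and LAMB3 ranked 4. At the other end, 12 of the 38 genes lay below 1 CPM in the mean of the 6 libraries, and none had 0 reads in all of them. The other 26 genes lay at 1 CPM or more.

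**Figure D1:**
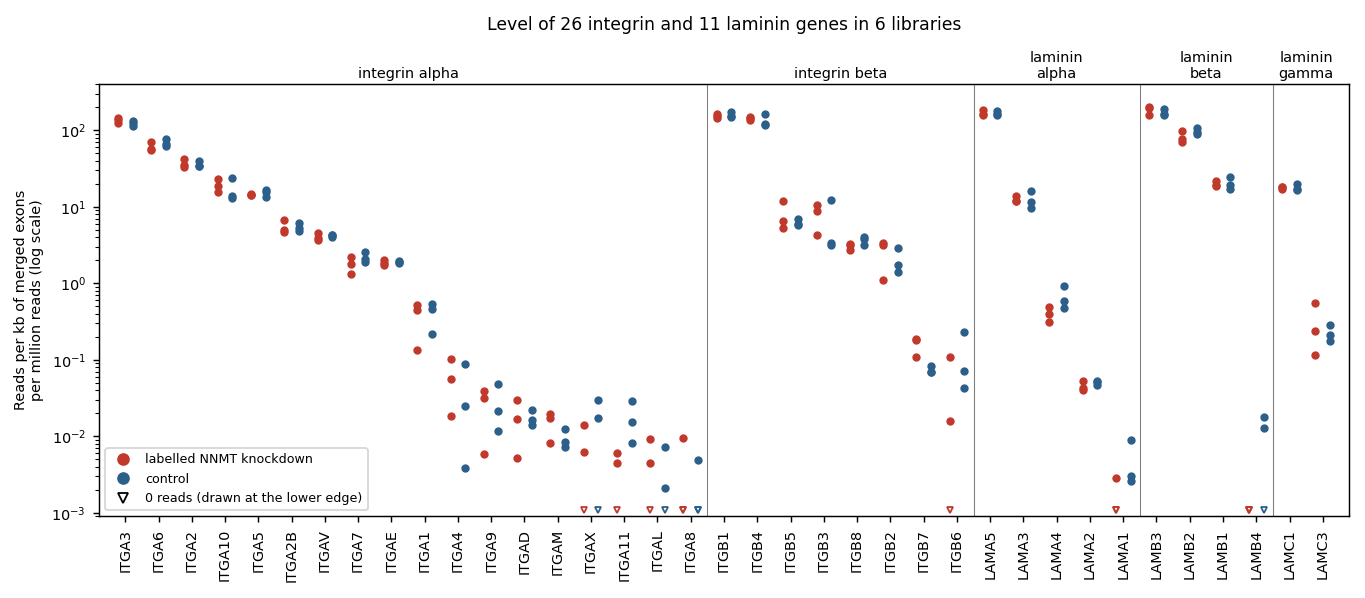
Length-scaled level of each gene (log axis, CPM per kilobase of merged exons) for 37 genes in libraries labelled NNMT knockdown (left of each pair) and control libraries (right), 3 points each; open triangles mark libraries with 0 reads. LAMB3, LAMA5, ITGB1, ITGB4 and ITGA3 stood above 100 in all libraries, while ITGA8 and LAMA1 lay at the bottom of their classes.

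Among alpha subunits, ITGA3 had the highest length-scaled level, at 136 ± 10.8 in libraries labelled knockdown and 123 ± 9.35 in control libraries (SD, n = 3 each). In CPM it had 1434, 1333 and 1223 in libraries labelled knockdown and 1228, 1104 and 1284 in control libraries, and the groups overlapped. The gene (chromosome 17, 50055968 to 50090481 in hg38) encodes the alpha3 subunit, a receptor for laminins that hold the alpha3 or alpha5 chain. ITGA6, which encodes the alpha6 subunit, followed at 60.7 ± 7.35 in libraries labelled knockdown and 68.3 ± 7.54 in control libraries. Its CPM values were 373, 462 and 382 in libraries labelled knockdown and 512, 440 and 415 in control libraries, and control replicate 1 was the highest. ITGA2, which encodes the collagen receptor subunit alpha2, had 279, 328 and 258 CPM in libraries labelled knockdown and 312, 269 and 271 CPM in control libraries. The control values of ITGA2 lay within the range of the libraries labelled knockdown. The fibronectin receptor subunit ITGA5 averaged 14.8 over the 6 libraries. The subunit ITGAV, shared by several receptors of RGD-containing ligands, averaged 4.14. ITGAV has merged exons of 19336 bases, the longest of the integrin genes, which lowers its length-scaled value.

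Alpha subunits best known from other tissues were also present. ITGA10, which encodes a collagen receptor subunit of cartilage, had 116, 96.9 and 142 CPM in libraries labelled knockdown and 85.8, 80.2 and 147 CPM in control libraries. The groups overlapped, and the highest value of each group was that of replicate 3. ITGA10 ranked 10 of 38 by length-scaled level, above ITGA5, but this order depends on the length used. By the length of the transcript with the longest coding sequence, ITGA10 averaged 21.1 and ITGA5 24.7. In CPM their means were 111 and 110. ITGA2B, the platelet alphaIIb subunit, had 26.7, 28.4 and 38.5 CPM in libraries labelled knockdown and 34.4, 30.2 and 27.2 CPM in control libraries. The 4 platelet markers summed to 0.493 to 1.27 CPM in libraries labelled knockdown and to 0.890 to 1.23 CPM in control libraries. ITGAE, the alphaE subunit of intraepithelial lymphocytes, averaged 12.3 ± 1.07 CPM in libraries labelled knockdown and 12.5 ± 0.293 CPM in control libraries (SD, n = 3 each), while its partner gene ITGB7 lay below 1 CPM in every library.

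The leukocyte alpha subunits were near the detection limit. ITGAL, ITGAM, ITGAX and ITGAD had 11, 19, 24 and 21 reads over the 6 libraries together. A library with 0 reads allows a level of up to 0.0535 to 0.0740 CPM, based on 3 reads taken as independent. This limit covers counting error only, and it is too low because mates of a pair were counted singly. Their shared partner gene ITGB2, which encodes the beta2 subunit, was present, at 8.01, 24.7 and 22.8 CPM in libraries labelled knockdown and 10.2, 12.5 and 21.3 CPM in control libraries. Leukocyte markers summed to 3.73 to 3.94 CPM in libraries labelled knockdown and to 3.75 to 4.17 CPM in control libraries. Single markers varied more than this sum: CD14 had 0.345, 0.198 and 0.322 CPM in libraries labelled knockdown and 0.721, 1.12 and 0.624 CPM in control libraries. The part of these markers in the level of ITGB2 was not tested. ITGB2 shares 4.2% of its exon bases with an antisense gene. ITGA4, a receptor subunit of leukocytes, had 149 reads over all libraries, ITGA9 had 61 and ITGA8 had 5. The collagen receptor subunit ITGA11 had 2, 3 and 0 reads in libraries labelled knockdown and 7, 15 and 5 reads in control libraries. Its groups did not overlap, but it was too low to be tested. The muscle laminin receptor subunit ITGA7 averaged 16.1 ± 4.16 CPM in libraries labelled knockdown and 19.99 ± 3.13 CPM in control libraries. ITGA1, a second collagen receptor subunit, lay between 2.47 and 9.99 CPM.

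Of the beta subunits, ITGB1 and ITGB4 held nearly all of the level. ITGB1 encodes the common partner of most alpha subunits listed above. It had 2361, 2115 and 2231 CPM in libraries labelled knockdown and 2480, 2183 and 2256 CPM in control libraries, and the groups overlapped. ITGB4, the partner of alpha6 in hemidesmosomes, had 987, 1015 and 916 CPM in libraries labelled knockdown and 1087, 797 and 822 CPM in control libraries. Here control replicate 1 was the highest of all libraries and the other 2 control libraries were the lowest. On the length-scaled level ITGB1 made up 45.0% to 50.2% of the class in libraries labelled knockdown and 49.2% to 53.0% in control libraries. ITGB4 made up 43.6% to 46.5% in libraries labelled knockdown and 40.3% to 46.5% in control libraries. This near-equal split depends on the length used. With the length of the transcript that has the longest coding sequence in GENCODE 29, ITGB1 averaged 76.0% of the class and ITGB4 19.7%.

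The remaining beta subunits pair mainly with alphaV or with leukocyte subunits. ITGB5 and ITGB3 had mean length-scaled levels of 7.10 and 7.05, closer than the spread of either gene. ITGB8 averaged 3.34 and ITGB2 averaged 2.27. ITGB7 and ITGB6, which encodes the beta6 subunit of epithelia, both lay below 1 CPM in the mean, with 140 and 138 reads over all libraries. Counts of ITGB7 and ITGB3 are uncertain, because 42.3% of the exon bases of ITGB7 overlap ZNF740 and 33.2% of those of ITGB3 overlap another annotated gene. Reads over such bases were not counted for either gene.

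**Figure D2:**
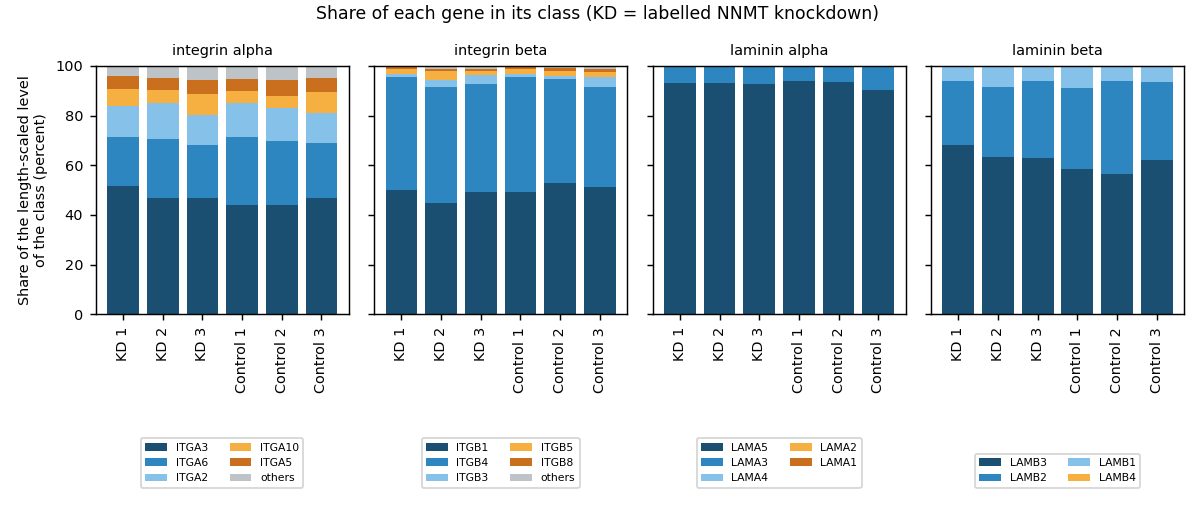
Share of each gene (percent, stacked bars) in the summed length-scaled level of its class, for 4 classes, one bar per library, with libraries labelled NNMT knockdown (KD) left of control libraries. LAMA5 took 90.3% to 94.1% of the laminin alpha class, while the beta class was divided among LAMB3, LAMB2 and LAMB1.

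Among the laminin alpha chains, LAMA5 dominated. The gene lies on chromosome 20 (62307955 to 62367312 in hg38, minus strand) and encodes the alpha5 chain, which is widespread in adult epithelia. It had 2348, 2281 and 2584 CPM in libraries labelled knockdown and 2339, 2524 and 2224 CPM in control libraries, with overlapping groups. It made up 92.6% to 93.0% of the class in libraries labelled knockdown and 90.3% to 94.1% in control libraries. LAMA3, the alpha chain of the hemidesmosomal laminin, had 174, 171 and 202 CPM in libraries labelled knockdown and 141, 165 and 230 CPM in control libraries. LAMA4, found mostly in vessels and mesenchyme, averaged 4.81 ± 1.06 CPM in libraries labelled knockdown and 7.86 ± 2.69 CPM in control libraries (SD, n = 3 each). The muscle chain LAMA2 lay between 1.06 and 1.39 CPM, and LAMA1, the chain of the early embryo, had 14 reads over all libraries.

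The beta chains were more evenly divided. LAMB3, the beta chain of the hemidesmosomal laminin, had 946, 743 and 913 CPM in libraries labelled knockdown and 737, 751 and 869 CPM in control libraries. LAMB2, one of the beta chains that join LAMA5, had 529, 485 and 663 CPM in libraries labelled knockdown and 610, 738 and 652 CPM in control libraries. LAMB1, the other beta chain that joins LAMA5, had 343, 407 and 356 CPM in libraries labelled knockdown and 452, 320 and 358 CPM in control libraries. For each of these 3 genes the groups overlapped. LAMB3 took 62.9% to 68.1% of the length-scaled level of the class in libraries labelled knockdown and 56.4% to 62.1% in control libraries. LAMB2 took 25.8% to 30.9% in libraries labelled knockdown and 31.5% to 37.6% in control libraries, so the groups did not overlap in either share. A higher share for LAMB3 leaves less for the rest of the class, so these are not separate observations. LAMA4, ITGB7 and ITGA11 were also apart in the share of their class. No background over other genes exists for such shares. These shares were not tested. LAMB3 averaged 61.9% of the length-scaled level of the class, LAMB2 31.1% and LAMB1 7.05%. LAMB1 has merged exons of 18592 bases, and by transcript length its share was 17.8%. LAMB4 had 0 reads in all libraries labelled knockdown and 0, 6 and 5 reads in control replicates 1, 2 and 3.

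Of the gamma chains, LAMC1, the gamma chain of most laminins, had 145, 152 and 154 CPM in libraries labelled knockdown and 145, 142 and 166 CPM in control libraries. LAMC3 had 1.04, 4.93 and 2.12 CPM in libraries labelled knockdown and 2.52, 1.89 and 1.59 CPM in control libraries. The groups overlapped for both genes, and replicate 2 labelled knockdown was highest for LAMC3.

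Chains of 1 trimer differed in RNA level. LAMB3 stood 13.6-fold to 17.0-fold above LAMA3 in libraries labelled knockdown and 11.8-fold to 16.4-fold above it in control libraries, per length. LAMA5 stood 8.88-fold to 9.89-fold above LAMC1 in libraries labelled knockdown and 7.93-fold to 10.54-fold above it in control libraries. By transcript length these imbalances were also seen, with mean ratios of 11.5 for LAMB3 over LAMA3 and 10.97 for LAMA5 over LAMC1. For LAMA3 this length was 10661 bases. Which LAMA3 transcripts were expressed was not tested, so the size of its ratio is uncertain.

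For the hemidesmosomal receptor, the ratio of ITGB4 to ITGA6 per length was 2.61, 2.17 and 2.37 in libraries labelled knockdown and 2.09, 1.79 and 1.95 in control libraries. The groups did not overlap in this ratio, the only one of 8 ratios picked by hand for which that held. Other pairs of members were not counted, and no background over ratios of other genes exists. For single genes, the groups did not overlap in CPM for 9.17% of all genes tested. LAMB3 over LAMB2, not among the 8, was apart as well, as follows from their shares given above. No p is attached to it, because the genes and ratios were chosen with results of these data known. By transcript length the ratio averaged 1.38 in libraries labelled knockdown and 1.13 in control libraries.

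Promoter sequence was set beside these levels, since the rule that picked the genes did not use it. RefSeq windows on GRCh38.p14, from 250 bases before to 50 bases after a gene start, were matched for 26 of the 38 genes. The start in the window lay within 372 bases of the outermost start in the deposited table, except for ITGB1 (47562 bases away) and LAMA3 (183567 bases away). The last 30 bases of the window were not found in a GENCODE 29 transcript of the gene for LAMC1 and ITGA2B. The dinucleotide CG, the target of DNA methylation and the mark of CpG-island promoters, was counted in each window; it reads the same on both strands. Over all 35116 RefSeq windows the median was 14 CG, 48.9% of windows held 15 or more and 29.6% held 4 or fewer. Of the 19 matched genes at 1 CPM or more, 10 held at least 15 CG and 2 held 4 or fewer. Of the 7 matched genes below 1 CPM, 3 held at least 15 CG and 4 held 4 or fewer. A CG-rich window therefore went with both high and low levels. LAMA5 with 41 CG, LAMC1 with 41 and ITGB1 with 39 were abundant, while ITGA4 with 31, ITGA11 with 29 and ITGA8 with 27 were near 0. CG-poor windows were also mixed, with ITGA10 and ITGA2B (2 CG each) expressed and ITGB6 (0 CG), ITGAM (2) and LAMB4 (2) near 0.

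The stretches just upstream of the deposited gene start are shown for 4 genes that stand for these combinations: CG-rich and abundant (LAMA5), CG-rich and near 0 (ITGA11), CG-poor and expressed (ITGA10), and CG-free and near 0 (ITGB6). Each is written 5′ to 3′ on the strand of the gene, from RefSeq on GRCh38.p14, and capitals mark each CG.
LAMA5 (chr20:62367313-62367562, minus strand): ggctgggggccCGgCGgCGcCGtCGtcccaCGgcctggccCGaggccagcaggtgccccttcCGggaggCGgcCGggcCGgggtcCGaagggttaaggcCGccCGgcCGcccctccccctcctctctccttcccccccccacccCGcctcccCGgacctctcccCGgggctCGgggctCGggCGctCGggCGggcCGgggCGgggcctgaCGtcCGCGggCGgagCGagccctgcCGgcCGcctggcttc
ITGA11 (chr15:68432164-68432413, minus strand): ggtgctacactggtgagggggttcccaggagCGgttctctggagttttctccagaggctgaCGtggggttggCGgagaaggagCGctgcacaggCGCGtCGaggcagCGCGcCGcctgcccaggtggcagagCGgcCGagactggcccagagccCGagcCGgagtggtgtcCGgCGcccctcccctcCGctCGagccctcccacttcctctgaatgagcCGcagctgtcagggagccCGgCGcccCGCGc
ITGA10 (chr1:145910112-145910300, minus strand): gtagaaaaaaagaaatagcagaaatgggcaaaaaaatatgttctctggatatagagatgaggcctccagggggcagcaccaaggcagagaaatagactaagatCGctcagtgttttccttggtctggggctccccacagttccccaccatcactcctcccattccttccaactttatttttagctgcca
ITGB6 (chr2:160200314-160200522, minus strand): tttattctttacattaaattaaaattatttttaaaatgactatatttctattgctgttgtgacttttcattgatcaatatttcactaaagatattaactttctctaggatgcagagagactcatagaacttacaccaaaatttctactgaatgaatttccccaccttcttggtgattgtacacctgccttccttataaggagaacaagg
The LAMA5 stretch held 32 CG in 250 bases and the ITGA11 stretch 23 in 250 bases. The ITGA10 stretch held 1 in 189 bases, and the ITGB6 stretch 0 in 209 bases. These counts describe the letters of the reference genome, and methylation was not measured.

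**Figure D3:**
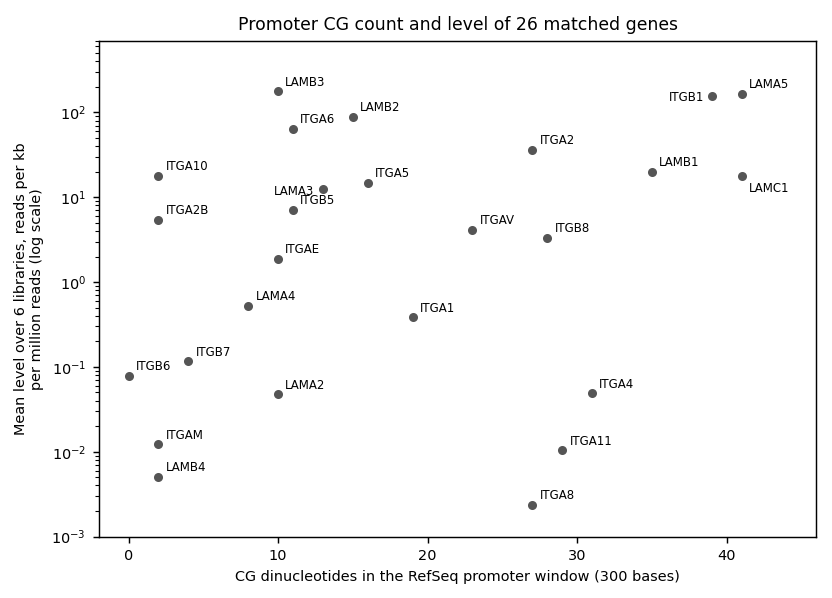
Number of CG dinucleotides in the RefSeq promoter window (horizontal axis) against the mean length-scaled level over 6 libraries (vertical log axis) for 26 matched genes, one point each. LAMA5 and ITGB1 stood at the upper right, while ITGA4, ITGA11 and ITGA8 had 27 to 31 CG and levels near 0.

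Some of these genes lie side by side in the genome, and not all such neighbours had similar levels. On chromosome 5, ITGA1 and ITGA2 lie 30.1 kb apart on the same strand, with mean length-scaled levels of 0.386 and 36.2. On chromosome 7, LAMB1 and LAMB4 lie 20.3 kb apart, with 20.1 and 0.00507. ITGAM, ITGAX and ITGAD follow each other on chromosome 16, and all were near 0.

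The main comparison asked whether any of these genes differed between libraries labelled NNMT knockdown and control libraries. No member passed: of the 30 members that passed the filter on low counts, edgeR's quasi-likelihood test called 0 higher and 0 lower at a Benjamini-Hochberg adjusted threshold of 0.05. Of all 20250 genes tested, 0.0% were called. DESeq2 called 8 of all genes (0.0395%), and edgeR without the filter called 72 (0.19%), in neither case a member. The 8 members left out by the filter were ITGA8, ITGA11, ITGAL, ITGAM, ITGAX, ITGAD, LAMA1 and LAMB4. Of the 30, 16 had a fitted log2 fold change above 0 and 14 below 0, with a median of 0.013, against 0.00333 for all genes tested. By class the median was -0.0228 for 12 integrin alpha genes, 0.221 for 8 integrin beta genes, -0.0642 for 4 laminin alpha genes and -0.0316 for 3 laminin beta genes.

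For most of the better expressed members the data bound the change to within 2-fold. Of the 24 members at a mean of 5 CPM or more, 19 had a 95% interval of the fold change that lay within 2-fold. Of all 30 tested members, 20 had such an interval, and 8 members were not tested. For ITGB1 the interval ran from 0.822-fold to 1.15-fold, for LAMA5 from 0.864-fold to 1.203-fold, for ITGA3 from 0.938-fold to 1.305-fold and for ITGB4 from 0.883-fold to 1.32-fold. The 5 members with wider intervals were ITGB5, ITGB3, ITGB2, ITGA1 and LAMA4. For ITGB3 the interval ran from 0.337-fold to 4.73-fold, so a sizeable change in that gene could not have been detected here.

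**Figure D4:**
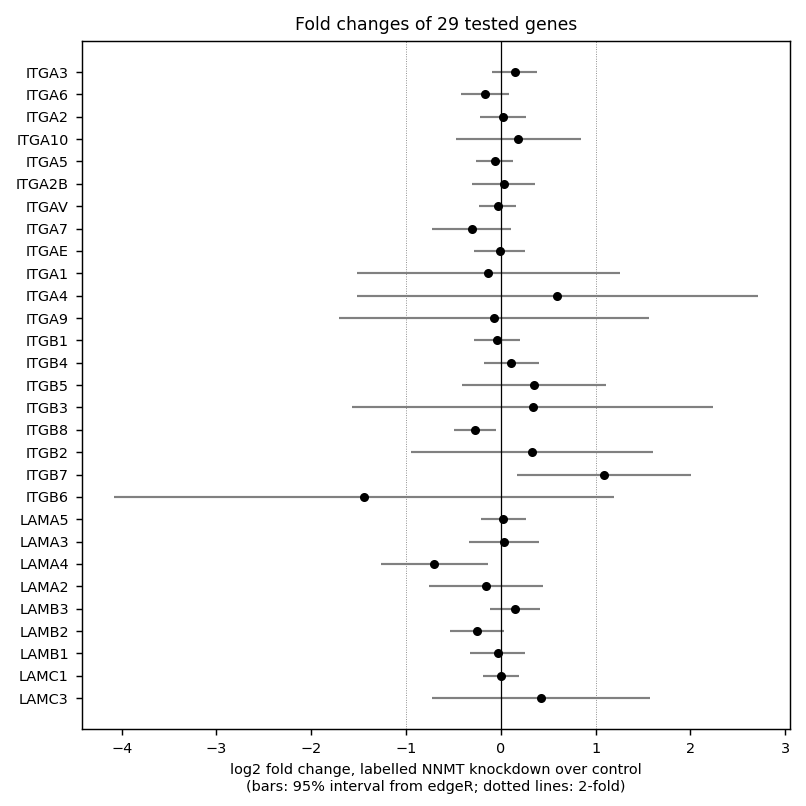
Fitted log2 fold change (points) and 95% interval (bars) of 29 tested genes, libraries labelled NNMT knockdown over control libraries; dotted lines mark 2-fold. The intervals of ITGB7, ITGB8 and LAMA4 lie clear of 0 before adjustment, and ITGB3 and ITGB6 have among the widest.

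An unadjusted p under 0.05 in edgeR's quasi-likelihood test was found for 3 of the 30 tested members (LAMA4, ITGB8 and ITGB7), against 4.03% of all genes tested. The count was 1 without replicate 1 labelled knockdown, 1 without control replicate 2, 5 without replicate 2 labelled knockdown and 7 without the filter on low counts. The share of all genes was not counted in these settings, and the genes tested also change without the filter. These counts therefore cannot be read against the 4.03%. In the main fit of edgeR's quasi-likelihood test, LAMA4, ITGB8 and ITGB7 each had an adjusted p of 0.999. LAMA4 had 4.78, 3.77 and 5.89 CPM in libraries labelled knockdown and 5.72, 6.99 and 10.9 CPM in control libraries. Its log2 fold change was -0.70 (SE 0.253), the groups overlapped, and the value was -0.41 without control replicate 3. ITGB8, which pairs with alphaV in a receptor that activates TGF-beta, had 41.1, 49.0 and 47.3 CPM in libraries labelled knockdown and 48.0, 60.4 and 57.8 CPM in control libraries. Its log2 fold change was -0.27 (SE 0.102), and control replicate 1 lay within the range of the libraries labelled knockdown.

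ITGB7 was the sole tested member whose groups did not overlap in CPM, 1 of 30, against 9.17% of all genes tested (4.29% higher and 4.88% lower in libraries labelled knockdown). It had 0.838, 0.485 and 0.805 CPM in libraries labelled knockdown and 0.313, 0.311 and 0.375 CPM in control libraries. These values rest on 34, 22 and 35 reads in libraries labelled knockdown and 13, 15 and 21 reads in control libraries. Mates of a pair were counted singly, so the number of fragments is smaller still. Its log2 fold change was 1.09 (SE 0.416), and the overlap with ZNF740 makes the counts uncertain.

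Several of these genes varied widely across the 6 libraries. The coefficient of variation of CPM, which pools both groups, had a median of 13.6% for the 24 members at 5 CPM or more, against 9.26% for 11518 genes at that level. It was 56.4% for ITGB3, 44.02% for ITGA1, 43.3% for ITGB2, 39.1% for LAMA4 and 35.0% for ITGB5. By contrast ITGAE, ITGB1, LAMC1 and LAMA5 had values of 5.70% to 5.90%.

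**Figure D5:**
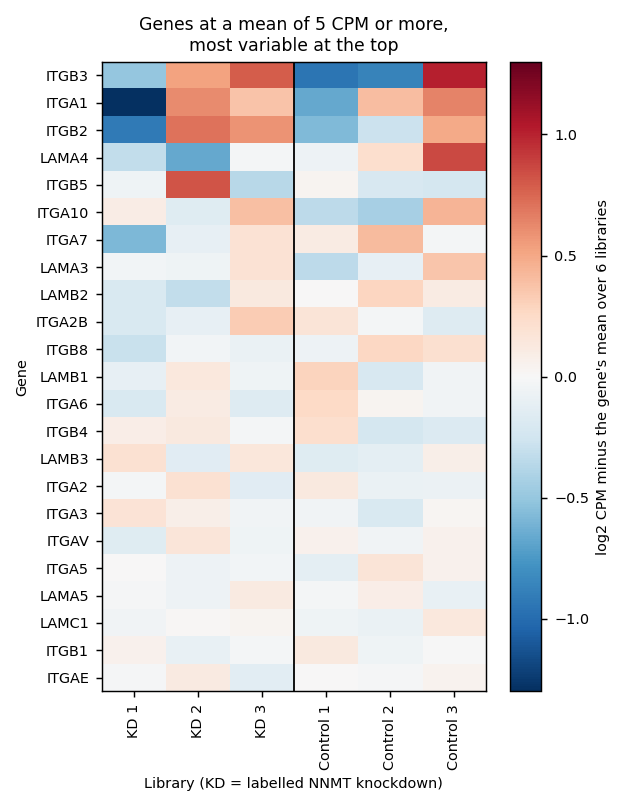
Deviation of log2 CPM from the mean of the gene over 6 libraries (colour) for 23 genes at 5 CPM or more, the most variable at the top; libraries labelled NNMT knockdown (KD) stand left of the black line. ITGB3, ITGA1 and ITGB2 were low in KD 1 and control 1 and high in KD 2, KD 3 and control 3. Unlike ITGB3, ITGA1 was also high in control 2 (8.46 CPM, against 8.28 CPM in KD 3).

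ITGB3, which encodes the beta3 subunit of the vitronectin and fibrinogen receptors, had 29.3, 59.8 and 71.9 CPM in libraries labelled knockdown and 21.4, 22.7 and 83.8 CPM in control libraries. Replicates 2 and 3 labelled knockdown and control replicate 3 were thus high, and the other 3 libraries were low, across both labels. ITGA1 had 2.47, 9.78 and 8.28 CPM in libraries labelled knockdown and 4.02, 8.46 and 9.99 CPM in control libraries. ITGA1 was lowest in replicate 1 of both groups. The summed level of the 12 gastric and intestinal markers was 43.3, 117 and 83.3 CPM in libraries labelled knockdown and 37.5, 57.8 and 129 CPM in control libraries, so it was highest in the same 3 libraries as ITGB3. Within this sum, MUC5AC gave 42.5 CPM in replicate 2 labelled knockdown and 3.67 to 8.97 CPM in the other libraries. The part of the sum in the spread of ITGB3 was not tested. ITGB5 stood apart in another way, with 42.7, 78.4 and 34.5 CPM in libraries labelled knockdown and 45.4, 38.5 and 38.01 CPM in control libraries. Its high value came from replicate 2 labelled knockdown, and without it the log2 fold change was -0.06, against 0.35 with all libraries. The 5 fibroblast markers, 3 of them below 1 CPM, summed to 264, 531 and 357 CPM in libraries labelled knockdown and to 252, 274 and 330 CPM in control libraries. Their sum was also highest in replicate 2 labelled knockdown, but COL1A1 alone gave 510 CPM of it there. COL1A2 and PDGFRB were highest in that library too, LUM was not, and DCN was at its lowest, at 0.0881 CPM. The part of this sum in the ITGB5 value was not tested.

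Genes that work with these receptors were not called either. The 5 lists of such genes were drawn up with earlier results of these data known. Of 34 tested genes of the integrin adhesion machinery, which links beta tails to actin, 0 rose and 0 fell after adjustment over all genes. Of these, 23 lay above 0 and 11 below 0, with a median log2 fold change of 0.0577, against 0.00333 for all genes tested. The lowest p in edgeR's quasi-likelihood test belonged to TGFB1I1 (the focal adhesion protein Hic-5), at 50.6 ± 5.87 CPM in libraries labelled knockdown and 42.4 ± 1.86 CPM in control libraries (SD, n = 3 each). The talin gene TLN2 measured 17.8 ± 1.72 CPM in libraries labelled knockdown and 14.5 ± 1.45 CPM in control libraries. The caveolin gene CAV1 measured 253 ± 8.08 CPM in libraries labelled knockdown and 225 ± 17.4 CPM in control libraries. The adjusted p was 0.999 for each of them in that test.

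Of 12 membrane partners of integrins, 0 rose and 0 fell, with 6 above 0 and 6 below 0 and a median log2 fold change of 0.0138. The tetraspanin gene TSPAN4 measured 113 ± 11.8 CPM in libraries labelled knockdown and 90.3 ± 4.95 CPM in control libraries. CD81, another tetraspanin gene, measured 131 ± 5.19 CPM in libraries labelled knockdown and 117 ± 5.65 CPM in control libraries. The groups did not overlap for these 2 of the 12 genes, against 9.17% of all genes tested. The same held for 3 of 34 adhesion machinery genes and 2 of 20 basement membrane partners. It held for 0 of 4 hemidesmosome partners and 0 of 22 genes for other integrin ligands. EPCAM, an epithelial adhesion molecule, measured 21.1 ± 3.64 CPM in libraries labelled knockdown and 31.6 ± 11.7 CPM in control libraries. Of the 4 hemidesmosome partners, 0 rose and 0 fell, with a median log2 fold change of -0.00399. The plectin gene PLEC was abundant, at 4096 ± 119 CPM in libraries labelled knockdown and 4253 ± 648 CPM in control libraries. CD151, a tetraspanin bound to laminin receptors, measured 295 ± 29.7 CPM in libraries labelled knockdown and 264 ± 15.1 CPM in control libraries. The linker gene DST measured 293 ± 16.4 CPM in libraries labelled knockdown and 285 ± 59.3 CPM in control libraries. The type XVII collagen gene COL17A1, a core hemidesmosome component, averaged 1.64 ± 0.890 CPM in libraries labelled knockdown and 1.79 ± 0.593 CPM in control libraries, far below ITGB4 and PLEC in reads.

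Of 20 tested partners of laminin in the basement membrane, 0 rose and 0 fell, with 10 above 0 and 10 below 0 and a median log2 fold change of 0.016. NTN4, a netrin that binds laminin gamma chains, measured 91.5 ± 12.9 CPM in libraries labelled knockdown and 118 ± 18.1 CPM in control libraries (SD, n = 3 each). The collagen IV genes COL4A1 and COL4A2, which share a promoter region, measured 299 ± 35.9 and 386 ± 41.3 CPM in libraries labelled knockdown, against 246 ± 47.5 and 330 ± 49.4 CPM in control libraries. Of 22 tested genes for other integrin ligands, 0 rose and 0 fell, with 15 above 0 and 7 below 0 and a median log2 fold change of 0.0746. TGFB3, a ligand precursor bound by alphaV integrins in its latent form, measured 51.3 ± 5.45 CPM in libraries labelled knockdown and 41.3 ± 7.63 CPM in control libraries. FGG, the fibrinogen gamma chain, averaged 0.664 ± 0.784 CPM in libraries labelled knockdown and 0.215 ± 0.122 CPM in control libraries. CDH1, the epithelial cadherin bound by alphaE-beta7, measured 31.7 ± 3.19 CPM in libraries labelled knockdown and 39.9 ± 9.48 CPM in control libraries. Its adjusted p was 0.999 in edgeR's quasi-likelihood test.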

How the data were processed

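Poly(A) RNA of 6 cultures was read as pairs of 150 bases, per the labels' protocols. The authors deposited raw counts of reads per gene, which featureCounts 2.0.6 made from hg38 alignments and GENCODE 44, per the file headers. No source used here names the aligner. Each mate counted as 1 read, strand was ignored, and reads over more than 1 gene or place were dropped, per the file headers. Overlapping and antisense genes therefore cannot be told apart; 6 of the 38 members share over 10% of their exon bases with another gene.

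All 62700 identifiers came with a symbol. Groups and replicate numbers are those of the sample titles, and NC in the column headers was read as negative control. CPM is reads divided by the library total. After filterByExpr and TMM scaling, all remaining genes were tested with edgeR 4.0.16 (quasi-likelihood, Benjamini-Hochberg adjustment, threshold 0.05, under R 4.3.3); NNMT was added to them. Alternatives used DESeq2 1.42.0, limma 3.58.1, other filters and scalings, thinning, a replicate block and leaving out each library. The procedure was tested on simulated data. The values of 1 member are not reported here, though it stays in the counts. Members and lists were chosen with earlier results of these data known. By rule, the text names the 3 members of highest length-scaled level in each class, members with an unadjusted p under 0.05, members at 1 CPM or more whose groups do not overlap, and up to 3 genes of lowest p in each related list; other genes were chosen after their values were seen.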

Additional observations from a re-analysis of the deposited data

How the results depend on the processing

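No member and no gene of the 5 related lists was called in the settings run. Over all genes, the 0 calls of edgeR became 72 without the filter on low counts, 8 in DESeq2 and 1 without control replicate 3; leaving out 1 library gave 0 to 1. The cause of these differences was not tested. At an unadjusted p under 0.05, edgeR counted 817 genes. The NNMT log2 fold change ran from -0.188 to 1.06 when 1 library was left out, with -0.0428 when control replicate 1 and -0.188 when knockdown-labelled replicate 3 was dropped. Of 31 fold changes of named genes, 11 changed sign in some setting and none was past the threshold. When 1 library was left out, the log2 fold change ran from -0.0412 to 0.0638 for LAMC1, -0.329 to 0.803 for LAMC3, -0.0625 to 0.569 for ITGB5, -0.0673 to 0.108 for ITGA2 and -0.0988 to 0.0235 for ITGB1. It ran from -0.138 to 0.132 for LAMB1, -0.101 to 0.246 for LAMA3, -0.0265 to 0.0777 for LAMA5, -0.0239 to 2.17 for FGG, -0.177 to 0.0469 for PLEC and -0.0621 to 0.211 for DST. LAMC1 was at -0.000273 with a mean of at least 5 CPM required and at -0.00306 after thinning. Shares of a class depended on the length: from reads undivided by length they averaged 45.6% for LAMB3, 67.4% for ITGB1 and 53.8% for ITGA3. By transcript length, an alternative chosen after seeing the data, they were 52.6%, 76.0% and 59.1% for the same genes. With the replicate number as a block, 0 genes were called; deviations of same-numbered libraries correlated at 0.055, -0.0869 and 0.200, not every library correlated best with its own number, and the numbers were not taken to pair the libraries. Genes under 1 CPM rest on few reads, which widens the intervals of their fold changes.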
